A study of Rattus norvegicus with 6 samples.

Results

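Bleomycin hydrolase (Blmh) and 8 genes of the pathway of the transcription factor p53 were followed in lungs of rats with bleomycin-induced pulmonary fibrosis (PF). The 9 genes were chosen by name (Blmh, Cdkn1a, Cdkn2a, Mdm2, Ccng1, Phlda3, Bax, Gdf15 and Sesn2). They are 9 of the 21210 gene names with an annotated transcript, and they hold 28 of the 70376 transcripts in the deposited table. All 9 genes and 25 of their transcripts were tested, being listed above 0 FPKM (fragments scaled to transcript length and library size) in 3 or more of the 6 samples. The rats were Sprague-Dawley rats, 7 weeks old at the start. The 3 rats sequenced from the PF model group had received 1 instillation of bleomycin into the trachea at 7 mg/kg, and the 3 sequenced from the control group had received saline. Lung specimens were taken on day 28, and 1 library depleted of ribosomal RNA was made from each of these rats.

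Bleomycin damages DNA by cutting its strands. Blmh is a cysteine protease of the cytosol that inactivates the drug by removing an amide group, and the lung, an organ prone to bleomycin toxicity, is known for a low activity of this enzyme. DNA breaks activate the kinases ATM and ATR, which stabilise p53, and p53 then induces genes that stop the cell cycle, start apoptosis or restrain p53 itself. Cdkn1a encodes p21, an inhibitor of cyclin-dependent kinases. Mdm2 encodes the ubiquitin ligase that degrades p53. Cdkn2a encodes the inhibitor p16 and, from another reading frame, ARF, which blocks Mdm2. It is a marker of senescent cells and is kept in this group as a regulator of the pathway.

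A p53 response element consists of paired half-sites. RefSeq promoter windows (build GRCr8, 250 bases before to 50 bases after each start) were found for 8 of the 9 genes, and they were searched for a pair of adjacent half-sites of the p53 consensus, which reads the same on both strands. With at most 1 mismatch and the C and G of each half-site core required, 17 of 33469 promoter windows (0.0508%) held such a site. The windows of Cdkn1a and Ccng1 were among the 17. Their sites are printed here because they show the element by which p53 is known to act, with the 20 bases of the match in capitals.
Cdkn1a: ttcagGAACATGTCTTGACTTGTTCagccc
Ccng1: cagctAGACCTGCCCGGGCAAGCCTtggca
The Cdkn1a match is at chr20:7150731-7150750 on the plus strand, from 201 to 182 bases before the start. The Ccng1 match is at chr10:25685099-25685118 on the minus strand, from 242 to 223 bases before the start. No window of the other 6 genes held these letters, also with 2 mismatches, which says nothing of sites elsewhere in those genes.

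The depth of the libraries was similar. The mean coverage of a base per unit of FPKM, which follows sequencing depth, ranged from 6.39 to 7.33 over the 6 libraries. Across genes, which are no independent replicates, log2(FPKM + 1) correlated with a mean r of 0.969 between rats of one group (6 pairs) and 0.970 between groups (9 pairs). The median r of each library with the others ran from 0.967 to 0.971, so no library stood apart by this measure. Markers of lung epithelium were at a summed FPKM of 10462 to 12081 in control and 9863 to 12873 in PF model samples. Of these 5 markers, 4 had a positive difference. Scgb1a1, which made up a large part of the sum, alone had a negative one (-0.25), at 5952 FPKM in control and 4965 FPKM in PF model samples on average. The 7 fibroblast and matrix genes examined summed to between 426.9 and 512.6 FPKM in control and between 509.2 and 628.2 FPKM in PF model samples. Of the 7, 6 had a positive difference, where 52.3% of all genes had a negative one. Col3a1 had the smallest p of these genes (unadjusted p = 0.0365, adjusted p = 0.934, limma). It alone of the 7 had groups that did not overlap (background 10.7%), at 168.5 ± 13.1 and 208.3 ± 22.3 FPKM (SD, n = 3). Timp1 alone had a negative difference (-0.22), at 8.86 FPKM in control and 7.57 FPKM in PF model samples on average. Of the 4 macrophage markers found, 4 had a positive difference and their summed FPKM overlapped between the groups (34.2 to 62.8 in control, 42.5 to 69.7 in the PF model). The lowest sum of each group went with Cd68, at 1.30 FPKM in control sample 3 and 1.21 FPKM in PF model sample 2 against 20.7 to 22.8 FPKM elsewhere. The difference of Cd68 was 0.05 (standard error 1.24). Spp1 was at a low level, at 0.159 FPKM in control and 0.277 FPKM in PF model samples on average. Gpnmb and Mrc1 had the smallest p of these markers (both adjusted p = 0.934, limma). The 3 erythroid markers found summed to between 2051 and 2774 FPKM in control and between 2323 and 3618 FPKM in PF model samples. Of the 3, 2 had a positive difference. Hbb had a negative one (-0.07), at 421.4 FPKM in control and 396.3 FPKM in PF model samples on average, and most of each sum came from another marker. In lung tissue of mixed cells, fewer cells of a type and less RNA per cell cannot be told apart, and the part of cell composition in the values below was not tested.

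None of the 9 genes passed the thresholds of an unadjusted p of at most 0.05 and a 2-fold ratio of group means (limma on log2(FPKM + 1)). Among all 19203 genes tested, 293 passed them (1.53%), 132 higher (0.687%) and 161 lower (0.838%) in the PF model (194 higher and 138 lower with FPKM rescaled to TPM), and 2 genes (0.0104%) and none of the 9 had an adjusted p below 0.05. The smallest p among the 9 was that of Ccng1. It alone of the 9 had an unadjusted p of 0.05 or less, as did 4.90% of all genes. The groups did not overlap for 1 of the 9 genes, where 10.7% of all genes were so separated. The median difference of the 9 genes was -0.07 on the log2 scale, and that of all genes tested was -0.01. As scaled by the authors, 8 of the 9 differences were negative (52.3% over all genes), whereas 4 of the 9 were negative after rescaling to TPM (38.6% over all genes). Rescaling moved the median of all genes to 0.05, and the 4 genes whose sign it turned (Blmh, Cdkn1a, Phlda3 and Bax) lay between 0.0070 and 0.019, below that median.

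**Figure D1:**
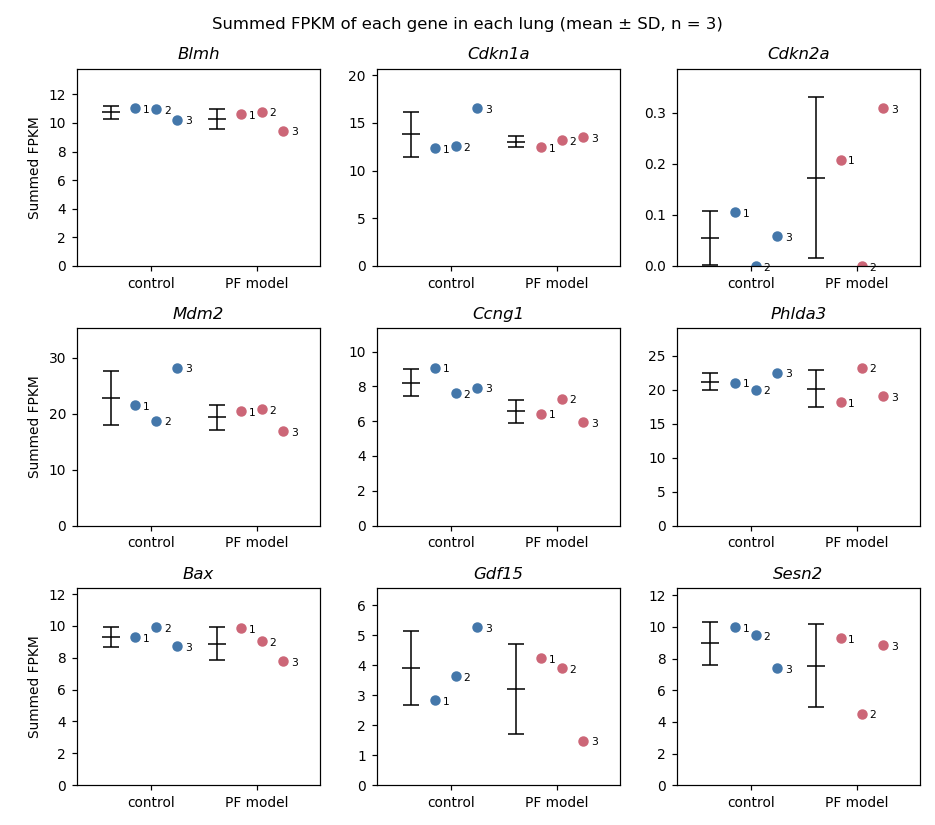
Summed FPKM of each of the 9 genes (vertical axis, starting at 0) in the 3 control lungs (blue) and the 3 PF model lungs (red), numbered by replicate, with the group mean ± SD (n = 3) in black to the left of the points. The groups overlap for 8 of the 9 genes, and Cdkn2a is at most at 0.31 FPKM in every lung.

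Blmh (chromosome 10, from 63197364 to 63240332 on the minus strand, in the coordinates of the deposited table) had a summed FPKM of 11.0, 10.9 and 10.2 in the control samples and 10.6, 10.8 and 9.45 in the PF model samples. The control and PF model values overlapped and lay within a narrow range. The means were 10.7 ± 0.446 (SD, n = 3) and 10.3 ± 0.722 (SD, n = 3), a difference of -0.06 on the log2(FPKM + 1) scale (standard error 0.09, adjusted p = 0.958, limma). The 95% interval of the difference ran from -0.27 to 0.15. On this scale a doubling of the control mean would be 0.94 and a halving -0.88, and both lay outside the interval. The transcript level of the enzyme that inactivates bleomycin thus did not differ beyond the spread between rats in this test. Blmh varied little, with a coefficient of variation within groups of 5.71%, where the median over genes with a mean FPKM of at least 1 was 14.0%.

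Blmh was measured as 3 annotated transcripts. The transcript with 12 exons, ENSRNOT00000005125, had 8.09, 8.23 and 7.31 FPKM in control and 7.30, 7.36 and 7.41 FPKM in PF model samples, and a base of it was covered 48.6 to 56.3 times per library. It held 73.4 ± 1.83% of the summed FPKM in control and 71.8 ± 5.66% in PF model samples (SD, n = 3, exact permutation p = 0.7, two-sided). The other transcripts are fragments of the gene with 5 and 2 exons, at 0.677 to 1.34 and 1.04 to 2.63 FPKM. A circular RNA of 5 exons of Blmh was listed with 1 back-splice read in control sample 1 and none in the other libraries, which held between 2037 and 2964 back-splice reads each. This is too few for a comparison.

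Cdkn1a (chromosome 20, plus strand) was at 12.3, 12.6 and 16.5 FPKM in control samples and at 12.4, 13.1 and 13.5 FPKM in PF model samples. All 3 PF model samples lay within the range of the control samples, of which control sample 3 was the highest. The difference was -0.07 (standard error 0.12, adjusted p = 0.968, limma), with a 95% interval from -0.37 to 0.23 that left out both a doubling (0.95) and a halving (-0.91). Without control sample 3 the difference was 0.06. Thus the summed level under the name Cdkn1a did not differ beyond the spread between rats on day 28. The mRNA of p21 is the usual readout of p53 activity, and this sum is not a measure of it alone.

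Cdkn1a had 5 transcripts under its name, of which 2 are annotated. The main one, ENSRNOT00000091731, from 6351458 to 6357756, had 6.79, 6.64 and 9.52 FPKM in control and 7.71, 7.00 and 9.09 FPKM in PF model samples, and held 55.1 ± 2.39% and 60.9 ± 7.08% of the gene (SD, n = 3, exact permutation p = 0.3, two-sided). The shorter annotated transcript, ENSRNOT00000000628, was at 0.801, 0.551 and 0.572 FPKM in control and at 1.89, 0.447 and 2.32 FPKM in PF model samples. PF model samples 1 and 3 were above every control sample and sample 2 was below them. Without PF model sample 2 this transcript passed the unadjusted thresholds (difference 0.92, adjusted p = 0.571, limma), so that call rested on leaving out 1 library. With the 2 annotated transcripts alone, the sum was 7.59, 7.19 and 10.1 FPKM in control and 9.60, 7.45 and 11.4 FPKM in PF model samples, a difference of 0.17 (ratio of means 0.19 on the log2 scale), so the sign of the difference depended on which transcripts were summed. On average, the assembled MSTRG.21470.3 was at 3.40 FPKM in control and 1.93 FPKM in PF model samples. MSTRG.21471.1, an unspliced stretch downstream of the gene, was at 1.73 and 1.09 FPKM. MSTRG.21470.1 went the other way, at 0.396 and 0.522 FPKM.

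Cdkn2a (chromosome 5, minus strand) was at the limit of detection. Its FPKM was 0.105, 0 and 0.0585 in control samples and 0.208, 0 and 0.31 in PF model samples. Control sample 2 and PF model sample 2 were listed at 0, and PF model samples 1 and 3 were above all controls. The difference was 0.15 (standard error 0.10, adjusted p = 0.934, limma), and its interval (-0.11 to 0.40) held both a doubling and a halving of the control mean. At this level the added 1 compresses the scale: the ratio of means was 1.66 on the log2 scale, and the difference was 0.65 with 0.1 added instead (adjusted p = 0.934, limma). Without PF model sample 2 the gene passed the unadjusted thresholds (difference 0.26, adjusted p = 0.820, limma), so that call rested on leaving out 1 library. Nearly all of the signal came from ENSRNOT00000079251, the transcript that begins further upstream, a base of which was covered 2.14 times in PF model sample 3 and 1.09 times or fewer elsewhere. The other annotated transcript, ENSRNOT00000084293, was listed above 0 only in PF model sample 1, at 0.0590 FPKM.

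Mdm2 (chromosome 7, minus strand) had the highest mean summed level of the 9 genes, with a range that overlapped that of Phlda3. Mdm2 was at 21.6, 18.8 and 28.2 FPKM in control and at 20.4, 20.8 and 16.8 FPKM in PF model samples. Control sample 3 was highest and PF model sample 3 lowest, and the other 4 samples overlapped. The difference was -0.21 (standard error 0.16, adjusted p = 0.934, limma), with a 95% interval from -0.60 to 0.17. A doubling (0.97) and a halving (-0.94) lay outside it. Without control sample 3 the difference was -0.06. These values are for the summed FPKM. Whether a doubling is left out was not examined for the annotated transcripts alone, whose difference was 0.56.

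The 8 transcripts under the name Mdm2 differ in kind. Only 2 are annotated, 4 are assembled transcripts that share a splice junction with the annotation (class j), and 2 lie within introns on the opposite strand (class i), so the sum for the gene name is not a measure of Mdm2 mRNA alone. The class i pair held between 30.9% and 39.03% of the summed FPKM. One of it, MSTRG.32557.1 from 60728792 to 60733591, had 3.66, 4.22 and 4.41 FPKM in control and 2.81, 3.01 and 3.31 FPKM in PF model samples. All PF model samples were below all control samples, and its difference was -0.33 (standard error 0.12, adjusted p = 0.945, limma). It was the only 1 of the 25 member transcripts tested with an unadjusted p of at most 0.05, which 4.53% of all 64867 transcripts reached. No member transcript passed both thresholds, which 2.98% of all transcripts did. The groups did not overlap for 2 of the 25, against 10.4% of all transcripts.

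The annotated Mdm2 transcripts gave another sign than the sum, a contrast that was not tested. ENSRNOT00000066767 was listed at 0 in every control sample and in PF model sample 1, and was at 1.70 and 1.45 FPKM in PF model samples 2 and 3. In those 2 samples MSTRG.32556.2, which overlaps its 3′ end, was at 0.690 and 0.692 FPKM, below the 1.99 to 3.92 FPKM of the other 4 samples. Summed, this pair was at 2.08, 1.99 and 2.71 FPKM in control and at 3.92, 2.39 and 2.14 FPKM in PF model samples, which overlap. Summing annotated transcripts only gave 3.13, 1.72 and 1.98 FPKM in control and 2.82, 4.62 and 4.004 FPKM in PF model samples. The difference of that sum was 0.56 (unadjusted p = 0.0513, adjusted p = 0.972, limma), the reverse of the sign for the whole name. Its ratio of means was 0.74 on the log2 scale. Summing classes = (identical to the annotation) and j on the strand of the gene gave 14.8 ± 3.62 and 13.2 ± 1.65 FPKM (SD, n = 3) and a difference of -0.13. A 2-exon circular RNA of Mdm2 was listed with 1 back-splice read, in PF model sample 1.

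**Figure D2:**
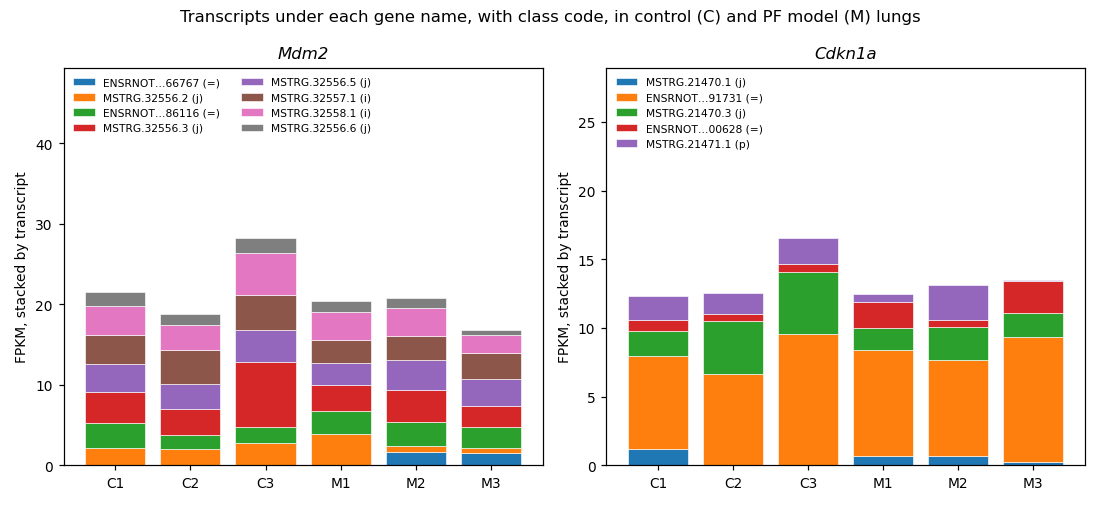
FPKM of each transcript listed under Mdm2 and Cdkn1a (stacked bars, vertical axis from 0) in the 3 control (C1 to C3) and 3 PF model (M1 to M3) lungs, with the class code in brackets (= annotated, j shares a splice junction, i within an intron, p downstream of the gene). The annotated Mdm2 transcript ENSRNOT00000066767 is present in M2 and M3 only, and total bar heights overlap between the groups for both genes.

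Ccng1 (chromosome 10, from 25903911 to 25910325 on the minus strand) encodes cyclin G1, which recruits a phosphatase to Mdm2. It was at 9.08, 7.61 and 7.94 FPKM in control and at 6.42, 7.30 and 5.96 FPKM in PF model samples. Every PF model sample was below every control sample, with a gap of 0.303 FPKM between the nearest samples. The means were 8.21 ± 0.773 and 6.56 ± 0.684 FPKM (SD, n = 3), a difference of -0.29 (standard error 0.11). The unadjusted p was 0.0446 and the adjusted p 0.934 (limma), and the ratio of means of -0.32 on the log2 scale was far from the 2-fold threshold. The exact permutation test gave p = 0.1 (two-sided), the smallest that 3 rats against 3 allow. The longer annotated transcript, ENSRNOT00000065633, held 87.9% to 94.1% of the gene and had 8.12, 6.99 and 6.98 FPKM in control and 5.64, 6.87 and 5.49 FPKM in PF model samples, again without overlap. Ccng1 kept its negative sign under all 16 alternatives, TPM included, with differences between -0.35 and -0.22, but the unadjusted p was at most 0.05 in 7 of the 16. The difference was -0.22 after rescaling to TPM (adjusted p = 0.908, limma) and also without control sample 1 (adjusted p = 0.893, limma), both past an unadjusted p of 0.05. Ccng1 and Cdkn1a, which share the near-consensus site in the promoter, thus gave different values, the latter with overlapping groups, and the difference between the genes was not tested.

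Phlda3 encodes a pleckstrin homology domain protein that restrains Akt. It was at 21.03, 19.996 and 22.5 FPKM in control and at 18.2, 23.2 and 19.03 FPKM in PF model samples. PF model sample 2 was the highest of all and the 2 other PF model samples were the lowest. The difference was -0.07 (standard error 0.11, adjusted p = 0.957, limma). Its annotated transcript, on chromosome 13 from 52588917 to 52592001, was covered 110.05 to 142.1 times per base, the deepest of the group. The rest came from MSTRG.9923.1, an unspliced stretch downstream of the gene (class p) at 0.986 to 3.10 FPKM.

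Bax, the effector that permeabilises mitochondria in apoptosis, was at 9.28, 9.92 and 8.72 FPKM in control and at 9.84, 9.06 and 7.77 FPKM in PF model samples. The samples of the groups were interleaved, and the difference was -0.06 (standard error 0.11, adjusted p = 0.967, limma). Of its 2 annotated transcripts on chromosome 1, ENSRNOT00000087061 held 86.7 ± 9.996% of the gene in control and 81.8 ± 6.09% in PF model samples (SD, n = 3, exact permutation p = 0.6, two-sided). For the summed FPKM of Phlda3 and Bax, as of Blmh, Cdkn1a, Mdm2 and Ccng1, both a doubling and a halving lay outside the 95% interval.

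Gdf15, a secreted protein of the TGF-beta superfamily that stressed cells release, was at 2.83, 3.64 and 5.26 FPKM in control and at 4.23, 3.89 and 1.48 FPKM in PF model samples. PF model sample 3 was the lowest and the other PF model samples lay within the control range. The difference was -0.27 (standard error 0.33, adjusted p = 0.946, limma), and the interval from -1.07 to 0.53 left out a doubling (0.84) but not a halving (-0.73). Without PF model sample 3 the difference was 0.07. Between 51.02% and 74.6% of its summed FPKM came from MSTRG.13921.1, a single-exon transcript that spans the intron (class e). The spliced transcript ENSRNOT00000026652, on chromosome 16 from 20555395 to 20557978, had 1.03, 1.55 and 2.58 FPKM in control and 1.81, 0.989 and 0.679 FPKM in PF model samples.

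Sesn2 encodes sestrin 2, a leucine sensor and inhibitor of the growth kinase complex mTORC1, which is induced by p53 and by the stress factor ATF4. It was at 9.98, 9.49 and 7.41 FPKM in control and at 9.30, 4.51 and 8.83 FPKM in PF model samples. PF model sample 2 stood below the others, which overlapped, and without it the difference of -0.26 (standard error 0.26, adjusted p = 0.935, limma) became 0.02. Its interval (-0.89 to 0.36) left out a doubling but not a halving. An assembled isoform, MSTRG.29136.1, was present only in control sample 1, at 2.34 FPKM.

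**Figure D3:**
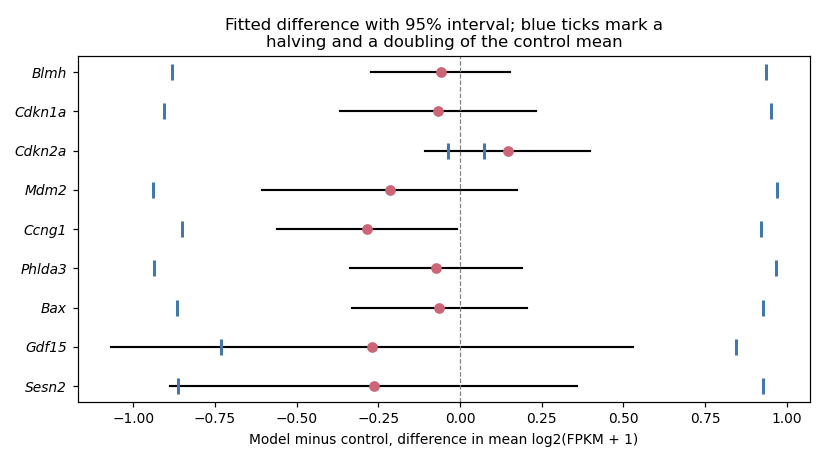
Difference of each gene between PF model and control in mean log2(FPKM + 1) (red points, model minus control) with its 95% interval from limma (black lines), and the value that a halving and a doubling of the control mean would have on this scale (blue ticks). The intervals are those of the summed FPKM, which for Mdm2 includes opposite-strand transcripts. A doubling lies outside the interval for 8 of the 9 genes and a halving for 6 of the 9. Cdkn2a is the only gene whose interval holds both.

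In FPKM, which is per length, the order of the mean levels over the 6 samples was Mdm2 (21.1), Phlda3 (20.7), Cdkn1a (13.4), Blmh (10.5), Bax (9.097), Sesn2 (8.25), Ccng1 (7.38), Gdf15 (3.55) and Cdkn2a (0.114). The ranges of the 6 samples overlapped between Mdm2 and Phlda3 and, among the middle genes, between Blmh and Bax, between Bax and Sesn2 and between Sesn2 and Ccng1. The other neighbours in this order did not overlap. Mdm2 lay above 89.3% of the genes tested, Blmh above 75.3%, Gdf15 above 47.4% and Cdkn2a above 9.21%. The Mdm2 level includes its opposite-strand transcripts. Without them, as the sum of classes = and j, it was at 11.3 to 18.6 FPKM and hence below Phlda3 in each of the 6 samples (16.4 to 20.3 FPKM for the same classes). Within groups, Cdkn2a (103.6%), Gdf15 (38.7%), Sesn2 (25.5%) and Mdm2 (17.9%) had larger coefficients of variation than the median gene, whereas Blmh, Bax (9.38%), Ccng1 (9.89%), Phlda3 (10.2%) and Cdkn1a (12.8%) had smaller ones.

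The rest of the p53 pathway and related genes were read from lists of known genes. They include the ATF4 programme, which is not part of the p53 pathway but shares Gdf15 and Sesn2 with it. Of 25 other p53 targets tested, 11 had a positive and 14 a negative difference, with a median of -0.02 and a range from -0.26 to 0.29. Only Eda2r, a p53-induced receptor of the TNF receptor family, had an unadjusted p of at most 0.05. It was at 0.0673, 0.17 and 0.293 FPKM in control and at 0.372, 0.311 and 0.346 FPKM in PF model samples, a difference of 0.20 (standard error 0.08, adjusted p = 0.934, limma), without overlap of the groups but at a low level. It passed both thresholds after rescaling to TPM and without control sample 3 (difference 0.27), whereas its unadjusted p was above 0.05 in 10 of 15 alternatives. The groups were also apart for 3 other targets, each lower in the PF model, namely Apaf1, the scaffold of the apoptosome (14.1 ± 0.551 and 12.7 ± 0.441 FPKM, SD, n = 3), Mdm4, the partner of Mdm2 (25.8 ± 1.73 and 22.5 ± 1.76 FPKM), and Rrm2b, a subunit of ribonucleotide reductase (5.96 ± 0.363 and 5.21 ± 0.0516 FPKM). In all, the groups did not overlap for 4 of the 25 (background 10.7%).

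Of the 16 tested genes of p53 and DNA damage signalling, 7 differences were positive and 9 negative, none reached an unadjusted p of 0.05, and the smallest p was that of Atr, a kinase that senses stalled replication, at 4.52 ± 1.24 and 3.20 ± 0.334 FPKM (SD, n = 3). The groups did not overlap for 2 of the 16 (background 10.7%), Atr and Mre11a, which encodes a nuclease of DNA break repair (3.70 ± 0.0672 and 3.11 ± 0.360 FPKM). Of 3 other inhibitors of cyclin-dependent kinases, 2 had negative differences, the larger being that of Cdkn1b, which encodes p27 (25.3 ± 4.78 and 20.01 ± 4.79 FPKM). Of 6 relatives of Bax, 3 differences were positive and 3 negative, and that with the smallest p was Bcl2l1, which encodes an inhibitor of Bax, without overlap of the groups, at 26.5 ± 0.197 and 22.5 ± 4.71 FPKM. Of the 6 genes of the ATF4 programme, which shares Gdf15 and Sesn2 with p53, none reached an unadjusted p of 0.05, and Atf4, with the smallest p of this list, was at 79.1 ± 11.1 and 69.9 ± 12.3 FPKM. Among these 5 lists, no gene passed both thresholds, and 0 of their 56 genes had an adjusted p below 0.05 by limma, with 1 at an unadjusted p of at most 0.05. Of 5 markers of dividing cells, 4 had a positive difference, and their summed FPKM was 20.8 to 23.1 in control and 20.9 to 23.2 in PF model samples. Pcna made up most of that sum. Mki67 alone had a negative difference (-0.07), at 5.08 FPKM in control and 4.78 FPKM in PF model samples on average. The groups did not overlap for 1 of the 5 (background 10.7%). This was Ccnb1, which encodes cyclin B1, at a low level (0.430 and 0.626 FPKM on average, adjusted p = 0.934, limma).

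**Figure D4:**
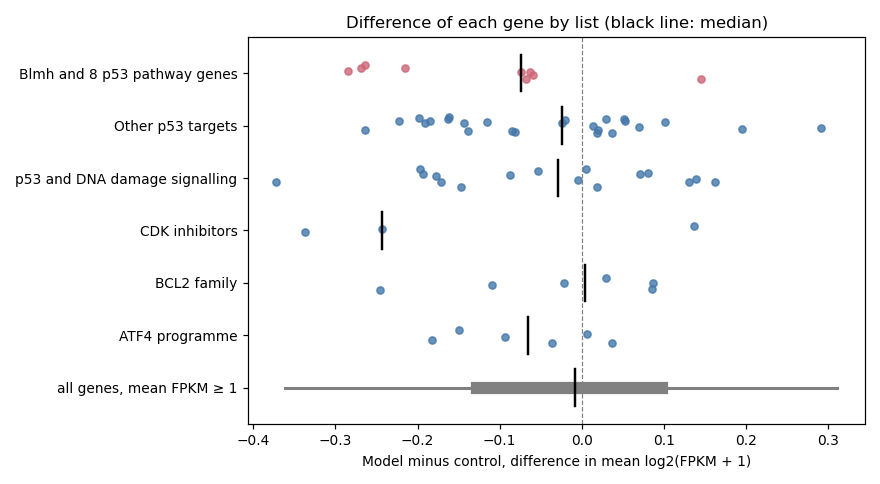
Difference between PF model and control in mean log2(FPKM + 1) (horizontal axis, model minus control) for each tested gene of the 9 genes (red) and of 5 lists of p53 pathway and related genes (blue), with the list medians as black lines. The grey bar runs from the percentile 25 to 75 and the grey line from 5 to 95 (-0.36 to 0.31) of the 13890 genes with a mean FPKM of at least 1, and of the listed genes only Atr (-0.37) lies outside the line.

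Genes whose promoter window held the p53 site were few in the table. Of those with at most 2 mismatches (0.335% of windows), 34 were among the genes tested, with a median difference of -0.02. Among the 34, 1 gene (Ccng1) reached an unadjusted p of at most 0.05, as did 4.90% of all genes. Among 13889 genes with a mean FPKM of at least 1, the pattern over the 6 samples most like that of Blmh was that of Nckipsd (Pearson's r = 0.987), LOC100911837 (r = 0.982) and AABR07071487.1 (r = 0.979). For Cdkn1a these were Fam174a (r = 0.999), Gpc6 (r = 0.994) and Rbm18 (r = 0.989). With 6 samples such values are common, since 134 genes reached an r of 0.9 with Blmh and 179 with Cdkn1a, and the samples share their scaling.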

How the data were processed

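Lung RNA of 3 control and 3 PF model rats was analysed, grouped by the sample titles. Adapters were cut by the authors (Cutadapt) before alignment to the rat genome (Bowtie2, Tophat2) and transcript assembly (StringTie). They deposited FPKM and per-base coverage (a signal not scaled for depth) for each transcript. HISAT2 is also named in the submitters' processing notes. The genome build is not given in the sources used here. The authors also deposited counts of back-splice reads per circRNA, called with CIRCexplorer, and SRPBM, a normalized signal that was not used. Assembled transcripts take the name of the gene they overlap or adjoin, so a summed value can hold intronic or downstream RNA.

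FPKM were summed over all transcripts of a gene name. Features listed above 0 in 3 or more of the 6 samples were compared on log2(FPKM + 1) with limma 3.58.1 (with trend, two-sided) in R 4.3.3, and p values were adjusted by the Benjamini-Hochberg method over all features. This scale understates differences of low genes. The fit was tested on simulated data. Isoform shares were compared by exact permutation over 20 regroupings. The 9 genes and the lists were chosen with earlier results of these data known. All of the 9 genes are named, and of the 5 lists of p53 pathway and related genes the gene with the smallest p and those with an unadjusted p of at most 0.05, besides the 3 genes with the highest Pearson r to Blmh and to Cdkn1a. Apaf1, Mdm4, Rrm2b, Mre11a and the cell type markers were named after their values were seen. The values of one listed gene are not reported here, but it is counted in its list. Of the 65 names on these 5 lists, 56 were found with an annotated transcript and tested. Promoter sequences are those of RefSeq (GRCr8), matched by symbol, and Python 3.11.15 was used for the search.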

Additional observations from a re-analysis of the deposited data

How the results depend on the processing

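The differences of the 9 genes stayed on the same side of the thresholds, with the same sign, in 132 of 143 comparisons with an alternative. The sign reversed with annotated transcripts only for Cdkn1a (0.17) and Mdm2 (0.56), and after rescaling to TPM for Blmh (0.019), Cdkn1a (0.012), Phlda3 (0.0070) and Bax (0.014), and the cause was not tested. Rescaling to TPM moved the median difference of all genes from -0.01 to 0.05. With each sample left out in turn, the difference ranged from -0.09 to -0.0050 for Blmh, from -0.14 to 0.060 for Cdkn1a, from 0.061 to 0.26 for Cdkn2a, from -0.34 to -0.058 for Mdm2, from -0.35 to -0.22 for Ccng1, from -0.18 to -0.0074 for Phlda3, from -0.13 to 0.021 for Bax, from -0.46 to 0.073 for Gdf15 and from -0.43 to 0.025 for Sesn2. The members called then numbered 0 to 1 (Cdkn2a, without PF model sample 2) and the member transcripts called 0 to 3, where 0 were called with all samples. The 3 were called without PF model sample 2. They were ENSRNOT00000000628 of Cdkn1a (higher), MSTRG.21471.1 of Cdkn1a (lower) and ENSRNOT00000079251 of Cdkn2a (higher), with adjusted p of 0.571, 0.635 and 0.912 (limma). Without control sample 1, MSTRG.21470.1 (higher) and MSTRG.21470.3 (lower) of Cdkn1a were called (adjusted p = 0.797 and 0.719, limma). ENSRNOT00000028328 of Bax (higher) was called without control sample 2 (adjusted p = 0.952, limma). MSTRG.32556.2 of Mdm2 (lower) was called without PF model sample 1 (adjusted p = 0.686, limma). The share of all transcripts called in these fits is not given, and with all samples it was 2.98%. The listed p53 pathway and related genes called numbered 0 to 1 in these fits and 1 (Eda2r) with TPM. All genes called numbered 293, 80 at a mean FPKM of at least 1, 519 with annotated transcripts only, and 317 to 409 with a sample left out. Cdkn2a gave no value at a mean FPKM of at least 1. The replicate numbers did not pair the samples (correlation of deviations 0.07, 0.03 and -0.07 for the same-numbered pairs), and with a replicate block 311 genes and none of the 9 were called. The sum over classes = and j was chosen after the data were seen.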
